A study of Mus musculus with 4 samples.

Results

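The genes described here encode the kinases and cyclins that carry a cell from G2 into mitosis, with their closest activators. They are Ccnb1, Ccnb2, Ccna2, Cdk1, Cdc20, Cdc25b, Cdc25c, Plk1, Aurka and Aurkb. These 10 of the 36983 genes and unnamed transcripts on the array were chosen by name, and every array probe annotated to them was kept, which gave 14 of the 55681 probes on the array. Ccnb1 and Cdk1 each had 3 probes and the other 8 genes had 1. RNA came from mouse cell lines that grew out of fetal livers transduced with p185 BCR-ABL1, a fusion tyrosine kinase of acute lymphoblastic leukaemia. R/R lines were homozygous for the point mutations R24C in Cdk4 and R31C in Cdk6 (Cdk4 R24C/R24C; Cdk6 R31C/R31C), and WT lines had the wild-type alleles. Both genotypes carried the p185 BCR-ABL1 transgene, shared a mixed C57BL/6J x CD-1 strain background, and grew asynchronously in RPMI medium. On 3 two-colour arrays R/R clone 1, 2 or 3 in Cy5 was set against a WT pool in Cy3, and on 1 array an R/R pool in Cy3 was set against the WT pool in Cy5. The labels speak of 3 replicates per genotype but do not say which lines entered the pools, and the lines were isolated as spontaneously immortal clones. The ids of clones 1 and 2 begin with the same number, so these clones may not be separate in origin. The comparison asks how gene expression in R/R cells differs from that in WT cells, and ratios are given on the log2 scale with R/R on top.

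CDK1 bound to cyclin A or cyclin B is the kinase that drives cells into mitosis. Before mitosis it is held inactive by phosphorylation, which the WEE1 and PKMYT1 kinases add and the CDC25 phosphatases remove. Aurora A activates PLK1, PLK1 promotes the activation of CDK1, and CDC20 with the anaphase-promoting complex (APC/C) later has the B cyclins destroyed. Transcripts of these genes accumulate in late S phase and G2, when repression by the DREAM complex has been lifted and the activators MYBL2 and FOXM1 act. CDK4 and CDK6 act earlier: they phosphorylate RB and its relatives at the start of the cycle, and the mutations named above are known to prevent INK4 inhibitors from binding them. In RNA from an asynchronous culture, a larger share of cells in G2 and mitosis and more transcript per cell cannot be told apart.

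Promoters of many genes of this class hold CCAAT boxes, bound by NF-Y, and a cell cycle genes homology region (CHR), bound by DREAM and by MYBL2 with its partners. RefSeq promoters (build GRCm38.p6, 250 bases before to 50 after the start of transcription, 300 bases) were matched for 7 of the 10 genes: Ccnb1, Ccnb2, Cdk1, Cdc20, Cdc25b, Plk1 and Aurka. The letters CCAAT were searched on both strands and lay in 7 of these 7 promoters, against 37.4% of all 32851 promoters in the same table. The CHR letters TTTGAA or TTCGAA, also on both strands, lay in 6 of the 7, against 19.2% of all promoters. The exception was Ccnb1, whose window held 2 CCAAT matches and neither TTTGAA nor TTCGAA. Other forms of the CHR were not searched, so a CHR of another form in that window would have been missed. The windows of Ccnb1, Cdk1 and Ccnb2 are shown because Ccnb1 and Cdk1 had the highest ratios below and Ccnb2 encodes the cyclin closest to cyclin B1. Capitals mark the matches, and a match on the other strand reads ATTGG in place of CCAAT. The windows lie on the minus strand at chr13:100786437-100786736 (Ccnb1), chr10:69352863-69353162 (Cdk1) and chr9:70421505-70421804 (Ccnb2), and are written 5′ to 3′ in the direction of the gene.
Ccnb1 promoter: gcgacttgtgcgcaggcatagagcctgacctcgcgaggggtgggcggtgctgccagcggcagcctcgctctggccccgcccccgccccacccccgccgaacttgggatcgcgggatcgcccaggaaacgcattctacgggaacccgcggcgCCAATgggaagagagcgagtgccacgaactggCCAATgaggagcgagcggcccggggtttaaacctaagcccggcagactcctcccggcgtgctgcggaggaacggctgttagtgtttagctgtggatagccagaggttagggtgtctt
Cdk1 promoter: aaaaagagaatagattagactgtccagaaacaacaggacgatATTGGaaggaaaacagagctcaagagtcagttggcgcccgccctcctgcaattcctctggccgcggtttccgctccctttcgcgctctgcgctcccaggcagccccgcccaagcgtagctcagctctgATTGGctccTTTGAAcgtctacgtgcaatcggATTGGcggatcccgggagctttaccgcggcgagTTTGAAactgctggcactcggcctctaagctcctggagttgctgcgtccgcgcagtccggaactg
Ccnb2 promoter: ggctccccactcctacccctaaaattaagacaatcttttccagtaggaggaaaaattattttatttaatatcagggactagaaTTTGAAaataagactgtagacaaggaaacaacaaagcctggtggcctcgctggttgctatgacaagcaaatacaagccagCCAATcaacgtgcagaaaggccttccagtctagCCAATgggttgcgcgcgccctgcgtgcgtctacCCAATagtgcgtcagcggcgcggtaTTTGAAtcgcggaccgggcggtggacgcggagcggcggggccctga
Among the forms searched, the match nearest to the start was a CHR match in Cdk1 and Ccnb2 and a CCAAT match in Ccnb1. That difference holds for these forms alone, since other forms of the CHR were not searched. Cdk1 held CHR matches at bases -15 and -71 from the start and CCAAT matches at -48, -80 and -208. Ccnb2 held CHR matches at bases 4 and -167 and CCAAT matches at -21, -54 and -87. The CCAAT matches of Ccnb1 lay at -67 and -99. A match describes these letters alone, since no binding was measured.

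All 4 arrays were on 1 slide, and the scanner software called 42.8% to 53.4% of R/R signals well above background, against 48.2% to 50.3% of WT signals. In all, 26439 probes passed the filter on dim signals, and all 14 probes of the mitotic entry genes were among them. The labels name no lineage for the cells. Of the early B markers, 9 of 9, such as Pax5 and Ebf1, were well above background in both channels of every array, and none passed the test between genotypes. Of 4 hepatocyte markers (Alb, Afp, Ttr and Apoa1), none was well above background in either channel of any array. Of 5 erythroid markers 4 were nowhere well above background, and the adult globin gene Hbb-bt was lower in R/R cells at -1.84 ± 0.19 (SE; limma adjusted p = 0.036). Of 4 T cell markers on the array, 2 (Cd3e at 0.13 and Cd4 at -0.17) were also well above background in both channels of every array. So were 4 of 5 myeloid markers, with a median of -0.23, and Mpo was nowhere well above background. None of these T cell and myeloid markers passed the test. Precision is limited by the number of arrays. The WT side is 1 pool without replicates of its own, so errors describe the spread between R/R clones.

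Of the mitotic entry genes, a single Ccnb1 probe passed the test between R/R cells and the WT pool, and the ratios of most of the others lay above 0 without passing. Taking the brightest probe of each gene, 9 of 10 ratios were above 0 in the fit, and the median of the 10 was 0.30. Over all tested probes 47.6% were above 0 and the median was -0.01. Ccnb1 had the highest ratio and Cdc25c, at -0.15, was the only gene below 0. The called probe was 1 of the 3 for Ccnb1, and no other of the 14 passed the threshold (limma with a genotype and a dye term, Benjamini-Hochberg adjusted p under 0.05 over all 26439 probes). Over all probes 0.185% were called higher (49 probes) and 0.401% lower (106 probes), and none of the 14 was called lower. At an unadjusted p under 0.05 there were 10 of the 14, against 14.9% of all probes. The smallest absolute ratio called anywhere on the array was 0.66, which only the Ccnb1 probes exceeded among the 14.

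On single arrays the ratio was above 0 on all 4 arrays for 12 of the 14 probes, against 14.6% of all probes, though the 4 arrays share the WT pool. The median over the 10 genes was 0.41 for clone 1, 0.30 for clone 2, 0.19 for clone 3 and 0.26 for the R/R pool. The medians over all probes lay between -0.02 and 0.01 on the same arrays. The median SD between the 3 clones was 0.10 over the 10 genes and 0.17 over all tested probes, dim ones included, a difference that was not tested. Ccnb1 (0.27) and Cdc25b (0.31) lay above both medians. In the intensities themselves, the lowest R/R channel lay above the highest WT channel for 10 of the 14 probes and, by the brightest probe, for 7 of the 10 genes, against 8.86% of all probes. Cdc25b, Cdc25c and Aurkb were the genes whose channels overlapped.

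**Figure D1:**
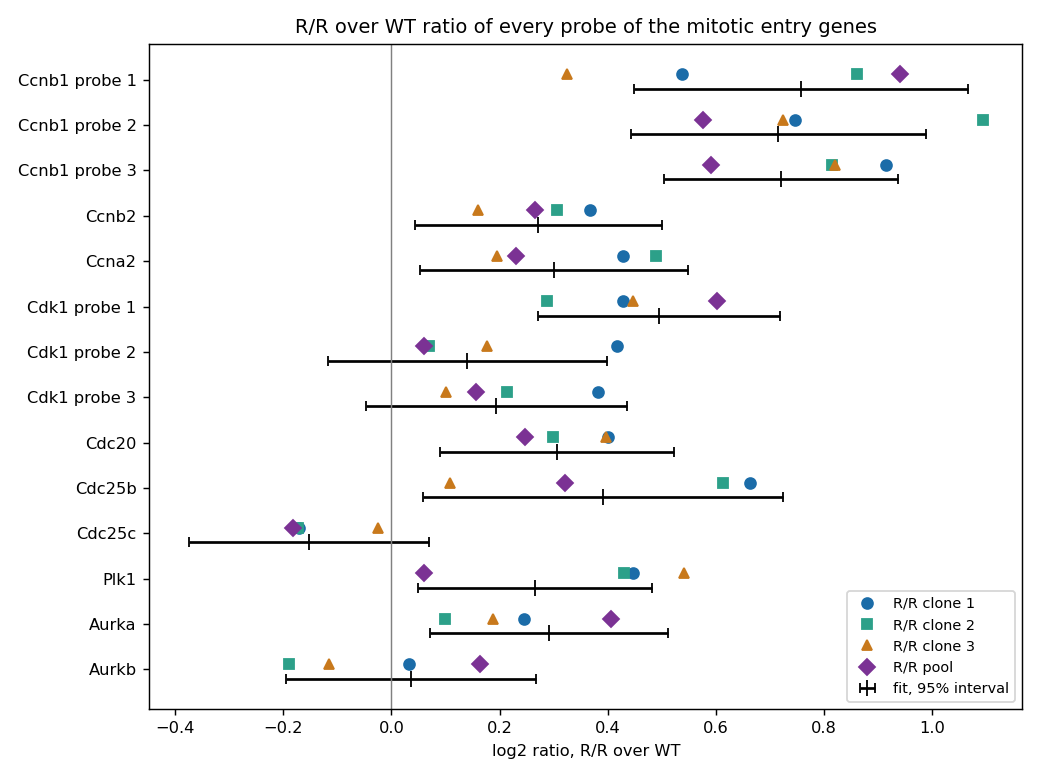
Log2 ratio of R/R over WT (horizontal axis) for each of the 14 probes, 1 row per probe, with a symbol for each R/R clone and the R/R pool and, under them, the fitted ratio with its 95% interval. The 3 Ccnb1 probes lie farthest to the right, all 4 arrays lie above 0 for 12 probes, all lie below 0 for Cdc25c, and Aurkb lies on both sides of 0.

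The plot of ratios by probe shows how the size and the spread differ between genes. The cyclins are described first. Ccnb1, which encodes cyclin B1, the main mitotic partner of CDK1, had ratios on its brightest probe (A_55_P2065671) of 0.54, 0.86 and 0.32 in clones 1, 2 and 3 and 0.94 in the R/R pool. Its normalised log2 intensity on these arrays was 11.87, 12.13, 11.62 and 12.15 in the R/R channel, against 11.33, 11.27, 11.30 and 11.21 in the WT channel. The R/R channel was thus higher on every array without overlap, with clone 3 the lowest, and the WT pool varied little between arrays. The fit gave 0.76 ± 0.13 (1.69-fold, 95% interval 1.36 to 2.09), which did not pass the test (limma adjusted p = 0.088). The second Ccnb1 probe (A_55_P1952256) read 0.75, 1.09 and 0.72 in the clones and 0.58 in the pool, for a fit of 0.72 ± 0.11 (adjusted p = 0.078). The dimmest of the 3 (A_55_P2128668) read 0.91, 0.81 and 0.82 in the clones and 0.59 in the pool. It was the only Ccnb1 probe to pass the test, with a fit of 0.72 ± 0.09 or 1.65-fold (95% interval 1.42 to 1.91, limma adjusted p = 0.046). The 3 probes therefore gave almost the same size, and differed in how closely the clones lay: the SD between clones was 0.27, 0.21 and 0.06. The order of the clones differed too, since clone 2 was highest on the first and second probes and clone 1 on the dimmest. With clone 1 left out this probe no longer passed (limma adjusted p = 0.145), nor did it with clone 2 left out (adjusted p = 0.058). The ratio of that probe stayed between 0.69 and 0.90 over 14 alternative settings. Of these 7 called it, counting the same fit read at an adjusted p under 0.10. Settings with the brightest probe or the mean of probes per gene are not among the 14, and called none of the mitotic entry genes.

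Ccnb2, which encodes cyclin B2, a Golgi-associated partner of CDK1, had ratios of 0.37, 0.31 and 0.16 in the clones and 0.27 in the pool. All were above 0, with clone 3 again the lowest. The fit was 0.27 ± 0.09 (1.21-fold, limma adjusted p = 0.267). Ccna2, which encodes cyclin A2, the cyclin of S phase and early mitosis, read 0.43, 0.49 and 0.20 in the clones and 0.23 in the pool. Its fit was 0.30 ± 0.10 (1.23-fold, adjusted p = 0.259), and neither of these cyclins passed the test. The Ccnb1 ratio thus stood above those of the other cyclins in the same RNA. By its brightest probe, the Ccnb1 ratio exceeded that of Ccnb2 by 0.17, 0.55 and 0.16 in the clones and by 0.68 in the pool, and that of Ccna2 by 0.11, 0.37, 0.13 and 0.71 on the same arrays. These differences between genes were not tested.

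Cdk1, the kinase itself, read 0.43, 0.29 and 0.45 in the clones and 0.60 in the pool on its brightest probe (A_55_P2048588). Its log2 intensity was 10.92, 10.83, 10.83 and 10.80 in the R/R channels, against 10.50, 10.54, 10.39 and 10.19 in the WT channels. The R/R values were almost level, did not overlap the WT values, and the high pool ratio went with a low WT reading on that array. The fit was 0.49 ± 0.09 (1.41-fold, 95% interval 1.21 to 1.64, limma adjusted p = 0.105), which did not pass. The mean of its 3 probes was 0.28 in the fit (adjusted p = 0.245). The other 2 Cdk1 probes were dim. The first of them (A_55_P2016647) read 0.42, 0.07 and 0.18 in the clones and 0.06 in the pool, with a fit of 0.14 ± 0.10. The second (A_55_P2016652), well above background on 3 of 4 arrays in each channel, read 0.38, 0.21 and 0.10 in the clones and 0.16 in the pool, with a fit of 0.19 ± 0.10. Their signals lay near the offset added to all intensities, which draws ratios towards 0. In the scanner software's own ratios, to which no offset was added here, the fits of these dim probes were 0.56 and 0.67, each without passing the test (adjusted p = 0.429 and 0.262). All 3 probes were above 0 on every array under both treatments of the signal.

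**Figure D2:**
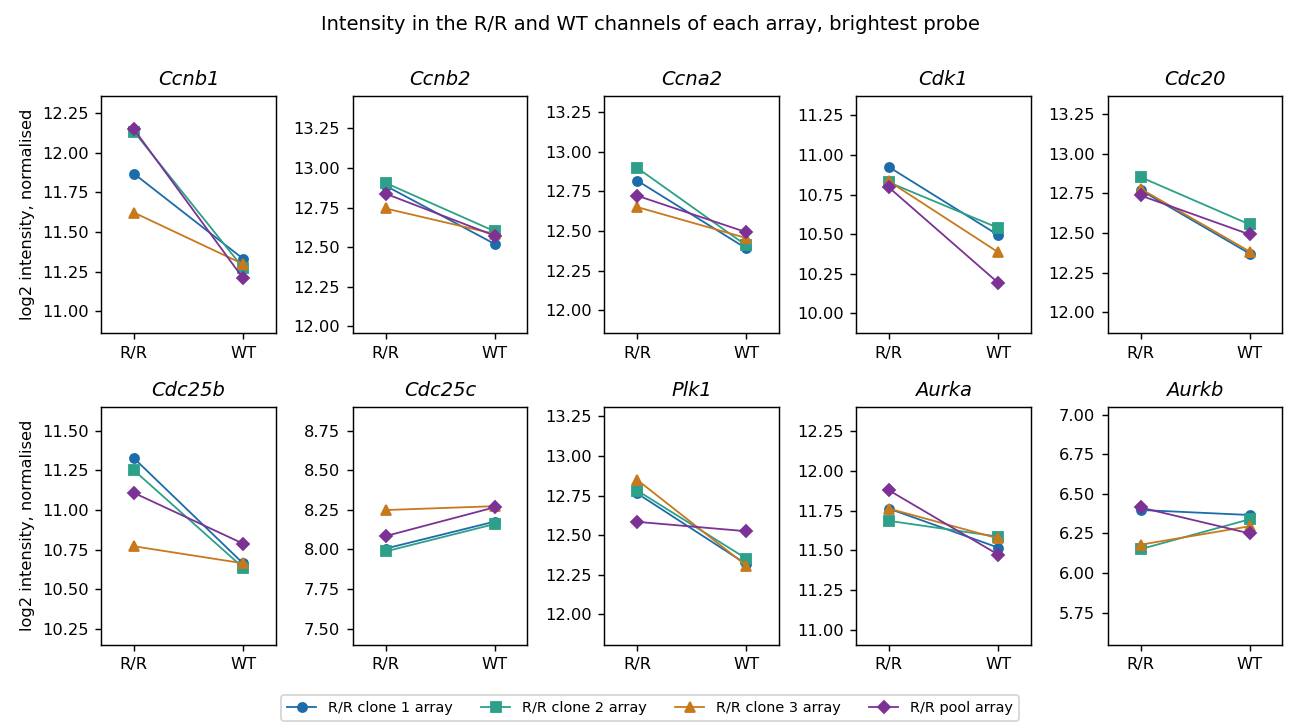
Normalised log2 intensity (vertical axis, 1 panel per gene, each panel with its own range of 1.5 units) in the R/R and WT channels of each array, brightest probe of each gene, with a line joining the 2 channels of an array. The R/R end of the line is the higher one on all 4 arrays for the 8 genes from Ccnb1 to Aurka other than Cdc25c. The panels of Cdc25b, Cdc25c and Aurkb show overlapping channels.

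The plot of channel intensities also shows the activators of CDK1. Cdc25b, the phosphatase that starts the activation of CDK1 in G2, read 0.66 in clone 1, 0.61 in clone 2, 0.11 in clone 3 and 0.32 in the pool. It had the widest spread between clones of the 10 genes (SD 0.31). Clone 3, at a log2 intensity of 10.77 in the R/R channel, lay within the range of the WT channels (10.64 to 10.79), and clones 1 and 2 lay above it at 11.33 and 11.25. The fit was 0.39 ± 0.13 (1.31-fold, limma adjusted p = 0.271). Cdc25c, the phosphatase that PLK1 phosphorylates at the onset of mitosis, was the exception in direction. It read -0.17, -0.17 and -0.02 in the clones and -0.18 in the pool, with a fit of -0.15 ± 0.09 (0.90-fold, adjusted p = 0.478). Its R/R intensities (7.99 to 8.25) overlapped its WT intensities (8.16 to 8.27), so Cdc25b and Cdc25c differed in sign on every array without either passing the test.

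Plk1, the polo-like kinase that turns on CDK1 activators, read 0.45, 0.43 and 0.54 in the clones but 0.06 in the pool. The 3 clones lay close together and the pool stood apart from them by -0.41, the largest such gap among the 10 genes. On the pool array the R/R channel read 12.58 and the WT channel 12.53, against 12.76 to 12.85 in the clones and 12.31 to 12.35 in the WT channels beside them. The fit, which weighs the clones' mean and the pool equally, was 0.27 ± 0.09 (1.20-fold, limma adjusted p = 0.254). From the clones alone it was 0.47 (adjusted p = 0.090), also short of the threshold. Dye and pool change together on that array, so their parts in this gap cannot be told apart. Aurka, which encodes the centrosomal kinase Aurora A, had the reverse order. It read 0.25, 0.10 and 0.19 in the clones and 0.41 in the pool, and all its R/R intensities (11.69 to 11.88) were above its WT intensities (11.47 to 11.59). Its fit was 0.29 ± 0.09 (1.22-fold, adjusted p = 0.229) and that of the clones alone was 0.18 (adjusted p = 0.350).

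Aurkb, the kinase of the chromosomal passenger complex that corrects attachments of chromosomes to the spindle, gave no direction. It read 0.03, -0.19 and -0.12 in the clones and 0.16 in the pool, and its fit was 0.04 ± 0.09 (95% interval 0.87 to 1.20-fold, limma adjusted p = 0.879). Its probe was dim, well above background on 1 of 4 arrays in the R/R channel and on 3 of 4 in the WT channel. The clones alone turned the sign, to -0.09. Cdc20, the APC/C activator that works after mitotic entry, read 0.40, 0.30 and 0.40 in the clones and 0.25 in the pool. Its R/R intensities (12.74 to 12.85) lay above its WT intensities (12.37 to 12.55), and the clones were among the closest of the 10 genes (SD 0.06). Its fit of 0.31 ± 0.09 (1.24-fold, 95% interval 1.06 to 1.44) did not pass (adjusted p = 0.208). RefSeq lists pseudogenes of Ccnb1, Ccnb2 and Aurkb, and it was not tested whether their transcripts bind these probes.

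In order of the fitted ratio of the brightest probe, Ccnb1 was followed by Cdk1, Cdc25b, Cdc20, Ccna2, Aurka, Ccnb2, Plk1, Aurkb and Cdc25c. No 2 neighbours in this order kept their order on all 4 arrays, and the order below Ccnb1 changed with the processing. With the mean of probes per gene Cdk1, at 0.28, lay below Cdc25b, Cdc20, Ccna2 and Aurka. With the clones alone Plk1 (0.47) and Cdc25b (0.46) lay above Cdk1 (0.39). By the brightest probe, Ccnb1 lay above Ccna2, Aurka, Ccnb2, Aurkb and Cdc25c on 4 of 4 arrays, and above Cdk1, Cdc25b, Cdc20 and Plk1 on 3 of 4. From Cdc20 to Plk1 the 5 fitted ratios lay between 0.27 and 0.31, closer than their SEs of 0.09 to 0.10.

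Most of the genes nearest to Ccnb1 on its chromosome also had ratios above 0. Neighbouring genes were taken in RefSeq gene order (GRCm38.p6), a comparison chosen after the Ccnb1 values had been seen. Of the 20 tested genes nearest to Ccnb1 on chromosome 13, 10 on each side, 17 had a fit above 0 and 13 were above 0 on all 4 arrays. Their median was 0.36 in the fit, and 0.22, 0.56 and 0.20 in the clones and 0.45 in the pool. Clone 2 and the pool thus had the higher medians. They also had the higher ratios on the brightest Ccnb1 probe (0.86 and 0.94), whereas on each of the other 2 probes, the called one included, the pool had the lowest ratio (0.58 and 0.59). Among these neighbours, Cdk7, which encodes the kinase that phosphorylates the activation loop of CDK1, stood at 0.58 ± 0.10 (limma adjusted p = 0.090). The adenylate kinase gene Ak6 stood at 0.67, Mrps36 at 0.61, the kinetochore gene Cenph at 0.38 and Pik3r1, a regulatory subunit of PI3K, at 0.38. None of the 20 passed the test. The brightest Ccnb1 probe exceeded the median of the neighbours by 0.31, 0.30 and 0.13 in the clones and 0.49 in the pool, or by 0.40 in the fit. The second probe did so by 0.52, 0.53 and 0.53 in the clones and 0.12 in the pool, and the called probe by 0.69, 0.25 and 0.62 in the clones and 0.14 in the pool. Each probe lay above the neighbours' median on every array, but the array with the largest gap differed between probes. In the fit the second and the called probe exceeded the median by 0.36 each.

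The 20 neighbours of each other mitotic entry gene had medians between -0.11 and 0.08, with 0.05 around Cdk1. Cdk1 exceeded the median of its own neighbours by 0.45 in the fit and Cdc25b by 0.39, close to the 0.40 of Ccnb1. On single arrays the difference for Cdk1 was 0.46, -0.005 and 0.49 in the clones and 0.55 in the pool. For Cdc25b it was 0.65, 0.60 and -0.17 in the clones and 0.28 in the pool. Unlike Ccnb1, these genes thus did not exceed their neighbours' median on every array. For the other cyclins the difference in the fit was 0.36 (Ccna2) and 0.31 (Ccnb2). It was 0.32 for Cdc20, 0.25 for Plk1, 0.21 for Aurka, 0.14 for Aurkb and -0.09 for Cdc25c. Ccna2, Ccnb2, Cdc20 and Plk1 lay above their neighbours' median on every array, and Aurka (-0.03 in clone 2), Aurkb and Cdc25c did not. Chromosome 13 had the highest median of the 20 chromosomes compared, at 0.15 over 467 genes, of which 70.2% were above 0. Its medians were 0.11, 0.15 and 0.21 in the clones and 0.18 in the pool. Chromosome 18, which holds Cdc25c, had the lowest median, -0.13 over 308 genes with 28.9% above 0. The other 18 chromosomes lay between -0.05 and 0.07 in the fit. In clone 3 alone, chromosome 5 had a higher median than chromosome 13, at 0.31 over 775 genes. The chromosome 5 median was 0.0003 and -0.0026 in clones 1 and 2 and 0.05 in the pool. The part of position in the ratios of Ccnb1 and Cdc25c was not tested.

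**Figure D3:**
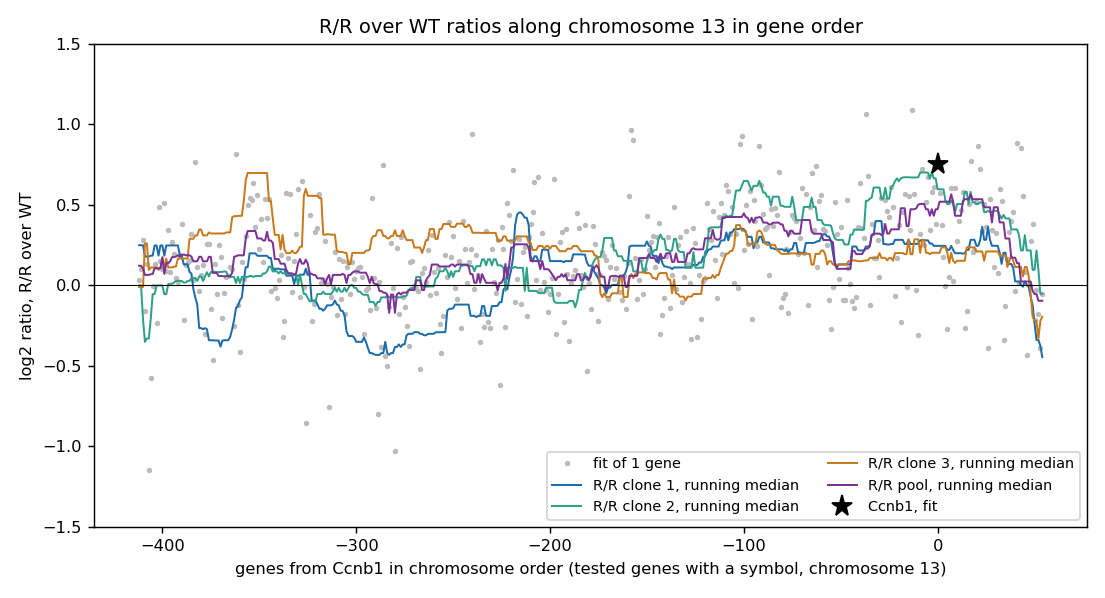
Log2 ratio of R/R over WT (vertical axis) for the 467 tested genes of chromosome 13 in gene order, counted from Ccnb1 (horizontal axis). Grey points are fits of single genes, lines are running medians over 21 genes for each R/R clone and the R/R pool, and the star is Ccnb1 at 0.76, above the lines, which all lie above 0 at its position.

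The plot along chromosome 13 shows that the running median of the fit was 0.38 at Ccnb1 and reached 0.52, its highest, 9 genes before it. Clone 2 and the pool ran above clones 1 and 3 near Ccnb1. The gene profiles nearest to Ccnb1 were sought with its brightest probe among 12295 other genes with a symbol, by the root mean square difference of the 4 log2 ratios. The nearest was Dimt1, an rRNA dimethyltransferase gene (0.62, 0.94 and 0.42 in the clones and 0.89 in the pool, a difference of 0.080), and the next was Ccnh, which encodes cyclin H, the partner of CDK7 (difference 0.115). Dimt1 and Ccnh both lie on chromosome 13. Zfhx3 on chromosome 8 (0.118), Plekhj1 on chromosome 10 (0.133) and N4bp2 on chromosome 5 (0.137) followed. Of these 5 genes only N4bp2 passed the test, at 0.80 ± 0.09 (limma adjusted p = 0.043). The nearest of the mitotic entry genes was Cdk1, at a difference of 0.343 and in place 195 of the ranking, followed by Cdc25b in place 227. These distances rest on 4 arrays and are a description.

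Other genes of the mitotic entry network were read from a list of 39 grouped by role, of which 37 passed the filter. The germline cyclin genes Ccna1 and Ccnb3 were not well above background in either channel of any array. None of the 37 was called in either direction, 8 had an unadjusted p under 0.05, 27 were above 0, and the median was 0.07. Over all 20045 genes 42 were called higher and 91 lower, 9304 were above 0, 3180 had an unadjusted p under 0.05, and the median was -0.02. In the group that sets CDK1 activity 5 of 6 genes were above 0, with a median of 0.18. Cks2, one of the small CDK-binding subunits, read 0.87, 0.58 and 0.86 in the clones and 0.26 in the pool, with a fit of 0.51 ± 0.10 (limma adjusted p = 0.123). Cks2 also lies on chromosome 13, where the running median of the fit was 0.21 at its place. The part of position in the Cks2 ratio was not tested. Its paralogue Cks1b read 0.25, 0.29 and 0.22 in the clones and 0.48 in the pool, with a fit of 0.37 ± 0.09 (adjusted p = 0.159). The ratio was thus above 0 on every array for both, highest in the clones for Cks2 and in the pool for Cks1b. The inhibitory kinases Wee1 (0.02) and Pkmyt1 (-0.07) lay near 0, and Cdc25a, the CDC25 phosphatase that also acts at the start of S phase, stood at 0.22.

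Partners of PLK1 and the Aurora kinases had a median of 0.06, with 7 of 8 above 0. Birc5, which encodes survivin, the passenger subunit of the Aurora B complex, stood at 0.33 ± 0.09 (limma adjusted p = 0.204). Tpx2, the spindle factor that activates Aurora A, stood below 0 on every array, at -0.20, -0.08 and -0.34 in the clones and -0.41 in the pool, with a fit of -0.31 ± 0.10 (adjusted p = 0.235). Aurka and its activator thus lay on opposite sides of 0 on all 4 arrays, without either passing. In the APC/C group 6 of 9 genes were above 0, with a median of 0.08. The APC/C inhibitor gene Fbxo5, or EMI1, read -0.32, -0.22 and -0.37 in the clones and -0.29 in the pool (fit -0.29 ± 0.09, adjusted p = 0.226), and the subunit gene Anapc11 had a fit of 0.28 ± 0.09 (adjusted p = 0.254). Cdc20 was therefore above 0 and Fbxo5 below 0 on each array.

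The Greatwall branch, which restrains the phosphatase that opposes CDK1, had 3 of 5 genes above 0 and a median of 0.02. Its lowest p belonged to Ensa (-0.14 ± 0.11, limma adjusted p = 0.580) and to the Greatwall kinase gene Mastl (-0.12 ± 0.10, adjusted p = 0.600). Regulators that transcribe or repress mitotic genes had 6 of 9 above 0 and a median of 0.08. The NF-Y subunit gene Nfyc stood at 0.22 ± 0.10 (adjusted p = 0.356) and the DREAM subunit gene Lin37 at 0.16 ± 0.09 (adjusted p = 0.436). Foxm1 (-0.07) and Mybl2 (0.01), the activators of late cell cycle genes, took both signs among the arrays.

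**Figure D4:**
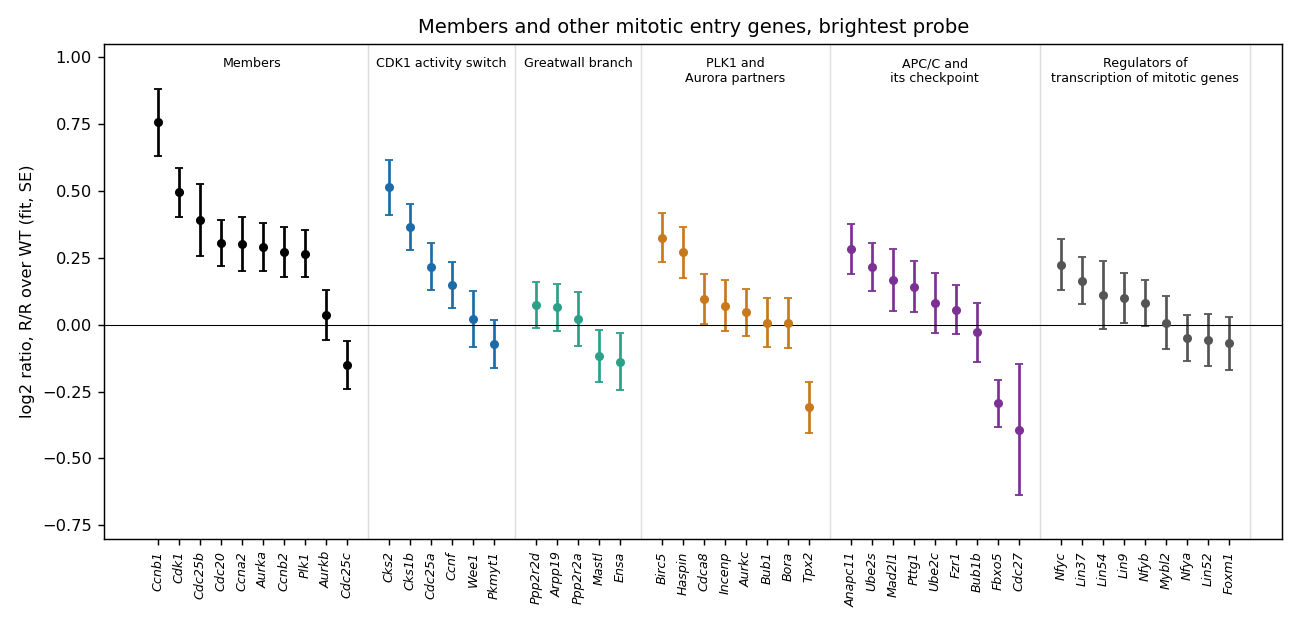
Fitted log2 ratio of R/R over WT with its SE (vertical axis), brightest probe per gene, for the 10 mitotic entry genes and the 37 other tested genes of the network, grouped by role and sorted within each group. Ccnb1 stands highest at 0.76, Cks2 is the highest of the other genes at 0.51, and Tpx2, Fbxo5 and Cdc27 are the lowest.

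The plot by role shows that Cks2, Cks1b and Birc5 stood above the mitotic entry genes' median of 0.30, and the other tested genes of the network lay below it. Cdc27, an APC/C subunit, had the lowest fit of the list (-0.39) and the widest SE, with clone 2 at 0.51 and clone 3 at -0.82.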

How the data were processed

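Gene expression was measured on 4 two-colour arrays in 3 R/R clones, an R/R pool and a WT pool. Per the labels, 100 ng of RNA (RNA integrity numbers 9.8 to 10.0) was labelled. Per the file headers, the deposited intensity values are median spot and local background brightnesses from Feature Extraction 11.5.1.1 (11.5 per the submitters' processing notes), the log10 values are its Cy5 over Cy3 ratios with their errors, and other columns flag spots. The log2 table deposited by the authors, whose making is not given in the sources used here, matched the ratios computed here by position (r 0.989 to 0.997 across spots, column medians -0.0014 to 0.0040). Its scale and direction follow from that match, its centring is not stated, and it has no probe names, so it gave counts alone.

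With limma 3.58.1 in R 4.3.3, intensities were background-corrected by normexp with an offset of 50 and normalised by loess within each array. Flagged spots (210 to 265 per array) were dropped, and replicate spots averaged. Of 55681 probes, 27656 had 1 RefSeq gene symbol and 28025 had none. A probe was tested if 1 genotype's signal was well above background on 3 or more of the 4 arrays (26439 probes). The fit had a genotype and a dye term and 2 residual degrees of freedom, two-sided, with Benjamini-Hochberg adjustment over all tested probes. Log2 ratios of the swapped array were turned to R/R over WT. Channel intensities were also equalised between arrays (Aquantile). The script was tested on simulated data.

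The genes, lists and alternatives were chosen with earlier results of these data known. Named were every probe of the 10 genes, the 2 genes of smallest p per role group, any called gene, and the 5 profiles nearest to Ccnb1; Wee1, Pkmyt1, Cdc25a, Foxm1, Mybl2, Cdc27, the neighbours on chromosome 13 and the markers were added after their values were seen.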

Additional observations from a re-analysis of the deposited data

How the results depend on the processing

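The fit used ratios of R/R over WT within each array, so the 2 channels were already compared in pairs. No further pairing was made, since the labels do not say which lines entered the pools. Of 214 values of the 14 probes under alternatives, 197 kept their direction and side of the threshold. The sign turned for Aurkb alone, to -0.0910 with the clones alone and to -0.0273 with no dye term. The medians stayed within the spread between clones. The count of probes of the mitotic entry genes called higher, 1 above, was 0 with median centring, offset 16, log ratios of the scanner software, the brightest probe per gene, the mean of probes, clones 1 and 2 averaged and an intensity trend. It was 2 with the clones alone, 5 with no dye term and 3 at an adjusted p under 0.10. Leaving out each clone gave 0 to 2 (0 without clone 1 or clone 2, 2 without clone 3). None was called lower under any of these. Of the network genes, 1 (Cks2) was called with the clones alone and 1 with no dye term. Of all probes, 49 were called higher and 106 lower. These became 8 and 49 with the scanner's ratios, 3 and 29 with median centring, and 28 and 66 with the mean of probes, and 29 were higher with the brightest probe. With no dye term there were 632 and 797, and at an adjusted p under 0.10 there were 131 and 248. Leaving out each clone gave 16 to 123 higher and 61 to 238 lower, lowest without clone 1 and highest without clone 3. The share of calls that were higher was 31.6%, against 14.0% with the scanner's ratios and 9.38% with median centring. With an intensity trend limma called 0 higher and 0 lower, with 1942 and 2011 at an unadjusted p under 0.05. The median of all probes moved by under 0.1 throughout. The causes were not tested. Arrays on 1 slide, 1 WT pool and 3 clones limit the precision, and ratios of dim probes (Aurkb and 2 of Cdk1) depend on the offset.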
